A study of Mus musculus with 7 samples.

Results

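The genes for mitochondrial ribosomal proteins were examined in bulk RNA sequencing of whole mouse liver. They were taken as every gene in the count table whose mouse symbol starts with Mrpl or Mrps followed by a digit, with pseudogenes left out, which gave 77 of 37620 genes: 48 of the large subunit (Mrpl) and 29 of the small subunit (Mrps). Every mouse was of the C57BL/6 strain and on a Western diet, which lasted 30 weeks. The H-TBA group, high in total bile acids, gave 4 libraries, and the L-TBA group, low in total bile acids, gave 3. Sex and age are not in the labels, nor is it said that each library is a different animal, so a p-value here reflects library-to-library spread, which may be technical. The series asks how the liver on this diet differs between mice with and without a spontaneous excess of bile acids.

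Mitochondria translate the few messenger RNAs encoded by their own DNA, all of them for subunits of the respiratory chain and ATP synthase, on a ribosome of their own. Its ribosomal RNAs come from mitochondrial DNA, but every one of its proteins is encoded in the nucleus, made in the cytosol and imported. The small subunit binds and decodes the messenger RNA, and the large subunit forms the peptide bonds and delivers the new chain to the inner membrane. Part of the proteins have counterparts in bacterial ribosomes and the rest are found in mitochondria alone. Hepatocytes are rich in mitochondria, which carry out fatty acid oxidation and part of the urea cycle and of bile acid synthesis.

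Total counts ran from 9996990 to 11488951 in H-TBA and from 10973114 to 12152613 in L-TBA. Of all genes, 15249 had enough counts to be tested. Levels are given as CPM, counts relative to library size after TMM, a scaling factor per library that sets aside genes with extreme ratios. The 6 hepatocyte markers summed to between 51844 and 58430 CPM in H-TBA and between 54401 and 63731 CPM in L-TBA. Albumin made up most of this sum, with a mean of 37121 CPM in H-TBA and 41021 CPM in L-TBA. Of the 6, 1 was called higher (Cps1, log2 fold change 1.13), 1 was called lower and 4 were not called. The 6 bile duct markers were all called higher in H-TBA, with a sum of 913 to 1755 CPM in H-TBA and 431 to 688 CPM in L-TBA. Of the 6 macrophage markers 3 were called lower, with a sum of 235 to 321 CPM in H-TBA and 432 to 654 CPM in L-TBA. Of the 6 endothelial markers 3 were called lower, with a sum of 113 to 135 CPM in H-TBA and 150 to 196 CPM in L-TBA. None of these markers was at 0 in any library, and the part of these cell types in the values below was not tested.

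Relative to the bulk of tested genes, on which TMM centres the libraries, livers of the H-TBA group held less transcript of a part of the mitochondrial ribosome than livers of the L-TBA group, in both subunits and by modest amounts. Of the 76 genes tested, 16 fell, 21.1% of them, while 10.7% of all tested genes were called lower. No gene rose, while 13.1% of all tested genes were called higher; the count of rises was also 0 at an unadjusted p under 0.05, by DESeq2 and by limma-voom. The test was edgeR's quasi-likelihood test, and a call is a Benjamini-Hochberg adjusted p under 0.05 over all tested genes. At a threshold of 0.01, 3 of the 76 were lower, beside 749 of 15249 tested genes. With the replicate number as a block in the fit, 2 of the 76 were lower, beside 754 of 15249. In both settings the share of the 76 was below that of all tested genes. Among the 16, Mrps36 fell by 40.2%, the most, and Mrpl17 fell by 16.9%, the least. The median log2 fold change, H-TBA over L-TBA, was -0.16 over the 76 genes and 0.00 over all tested genes. It lay below 0 for 66 of the 76, against 49.4% of all tested genes. Mrpl53, with 4 counts over the 7 libraries, was too low to test.

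All 4 H-TBA libraries lay below all 3 L-TBA libraries in 24 of the 76 genes, where 16.3% of all tested genes had that order. The reverse order was seen in 0 of the 76 genes, where 17.2% of all tested genes had it. The 24 held all 16 called genes and 8 that were not called: Mrps33, Mrps10, Mrpl41, Mrps16, Mrps18b, Mrps14, Mrpl58 and Mrpl28. The number called lower depended on single libraries: it was 24 without H-TBA 1, 10 without H-TBA 2, 8 without H-TBA 3, 6 without H-TBA 4, 8 without L-TBA 1, 6 without L-TBA 2 and 6 without L-TBA 3. Over all tested genes it was 2123 of 15184, 1197 of 15098, 1207 of 15075 and 1113 of 15005 without H-TBA 1 to 4. Without L-TBA 1 to 3 it was 1035 of 15527, 1155 of 15521 and 1139 of 15601. Without H-TBA 4, L-TBA 2 or L-TBA 3, the share of the 76 genes was thus close to that of all tested genes. The calls of Mrpl16, Mrps28, Mrpl51 and Mrps36 held whichever library was left out. Scaling by library totals in place of TMM moved the median of all tested genes to 0.16 and that of the ribosomal protein genes to -0.00. Such a change shifts all genes by nearly the same amount. The position of these genes relative to the all-gene median, -0.16, was therefore bound to stay and is no separate check. Only Mrpl16, Mrps28 and Mrps36 were still called lower, where 5.46% of all tested genes were. Mrps23 was called higher, where 20.4% of all tested genes were.

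**Figure D1:**
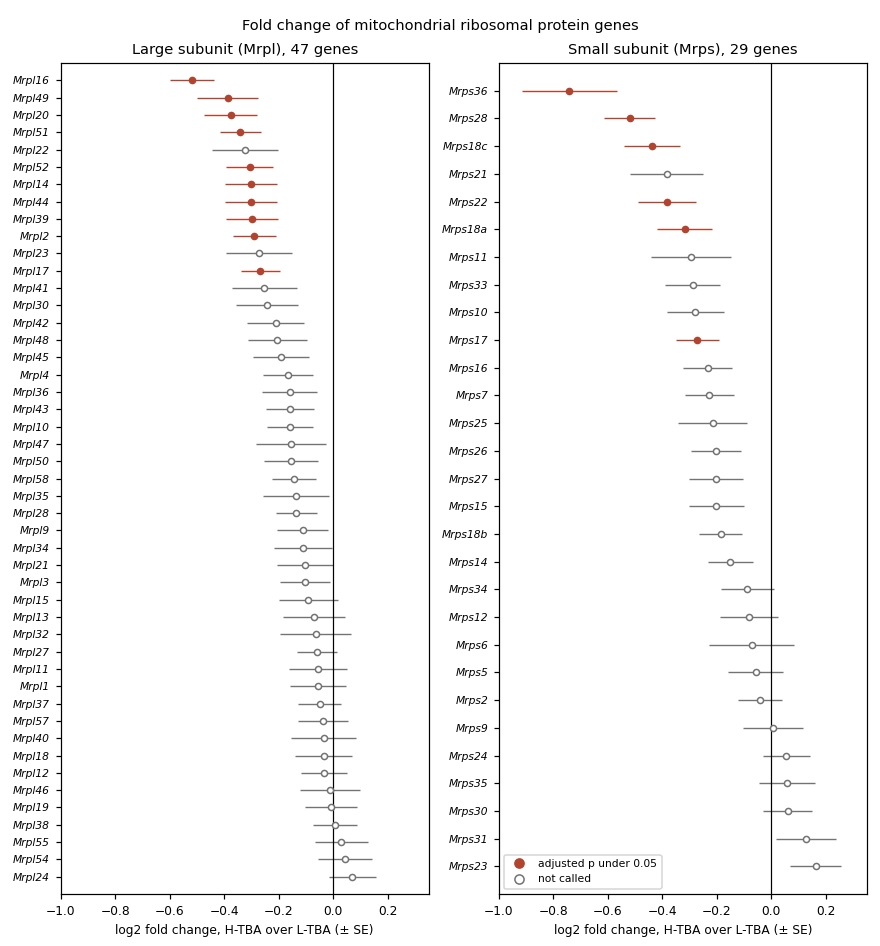
Log2 fold change (H-TBA over L-TBA) of each tested large-subunit gene (left) and small-subunit gene (right), with its standard error as a bar. Filled points are the 16 genes with an adjusted p under 0.05, all of them below 0, and open points are the 60 that were not called.

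Genes of both subunits fell. Of the large-subunit genes 10 of 47 fell, 21.3%, and of the small-subunit genes 6 of 29, 20.7%, beside 10.7% of all tested genes. The median log2 fold change of the large subunit was -0.14 and turned to 0.010 with library totals. That of the small subunit was -0.20 and became -0.049 with library totals. Relative to the all-gene median the large subunit stood at -0.15 and the small subunit at -0.21, positions that a change of scaling leaves nearly fixed. Mrps18a and Mrps30 carry small-subunit names but are known to sit in the large subunit. Counted by position in the ribosome, 11 of 49 large-subunit genes (22.4%) and 5 of 27 small-subunit genes (18.5%) fell. Summed over its 47 tested genes, the large subunit reached 1592, 1526, 1423 and 1402 CPM in H-TBA libraries 1 to 4, against 1644, 1648 and 1649 CPM in L-TBA libraries 1 to 3. The small subunit summed to 754, 727, 689 and 694 CPM in H-TBA and to 793, 809 and 793 CPM in L-TBA. In both sums every H-TBA library lay below every L-TBA library, an order that was lost with library totals. H-TBA 1 was nearest to the L-TBA group, and H-TBA 3 and 4 were lowest.

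The large-subunit sum was 1486 ± 89.2 CPM in H-TBA (SD, n = 4) and 1647 ± 2.81 CPM in L-TBA (SD, n = 3), a mean difference of -9.79%. The small-subunit sum was 716 ± 30.1 CPM in H-TBA and 798 ± 9.03 CPM in L-TBA, a mean difference of -10.3%. Scaled by library totals, the large-subunit sum was 1551 ± 30.9 CPM in H-TBA and 1547 ± 40.6 CPM in L-TBA, and the small-subunit sum 748 ± 12.4 CPM in H-TBA and 750 ± 26.2 CPM in L-TBA, with overlapping groups. The ratio of large to small stayed within its spread, at 2.07 ± 0.0418 in H-TBA and 2.06 ± 0.0225 in L-TBA. The L-TBA libraries were close to each other in the TMM-scaled sums, and the H-TBA libraries spread more widely. H-TBA 3 was the lowest of the 7 libraries in 25 genes and H-TBA 4 in 26. H-TBA 1 was the lowest in 7 genes. The same counts were not made over all tested genes. H-TBA 3 and 4 were also the lowest of the 7 libraries in the sum of nuclear respiratory chain genes, at 9925 and 9798 CPM. H-TBA 1 also had the lowest bile duct marker sum of its group, 913 CPM, against 1557, 1755 and 1466 CPM in H-TBA 2, 3 and 4; the part of this in the gene values was not tested. In whole liver, fewer hepatocytes and less transcript per hepatocyte cannot be told apart.

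**Figure D2:**
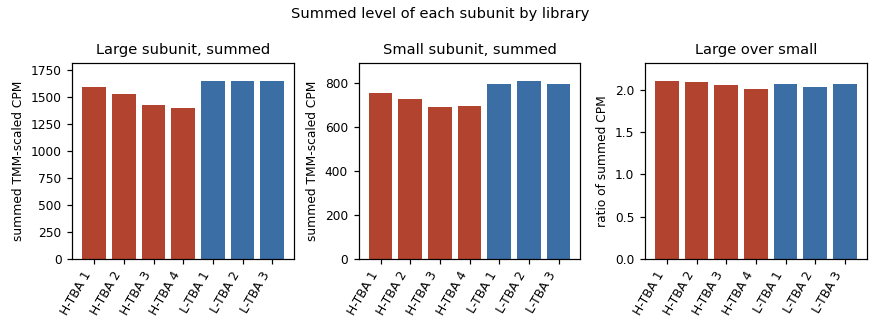
Summed level of the large-subunit genes (left) and the small-subunit genes (middle), in TMM-scaled CPM, and the ratio of the sums (right), with a bar for each library. The 4 H-TBA bars run from 1402 to 1592 CPM for the large subunit and from 689 to 754 CPM for the small subunit, below all L-TBA bars on this scale, while the ratios of the groups overlap.

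Promoters of these genes are known for sites of NRF1, of ETS-family factors such as GABPA, and of YY1, transcription factors that act on many nuclear genes for mitochondria. RefSeq promoters (GRCm38.p6), from 250 bases before to 50 after a start, were matched by symbol for 68 of the 77 genes. These genes had 74 promoters, since some have several starts, and exact motif letters were searched on both strands. The NRF1 motif (GCGCA, any base, GCGC) occurred in 17.6% of the 74 promoters and in 4.60% of all 32851 promoters in the RefSeq table. CCGGAAGT (ETS) occurred in 14.9% of the 74 and in 3.89% of all promoters, and AAGATGGC (YY1) in 16.2% of the 74 and 2.75% of all promoters. Over the 21263 promoters of protein-coding genes alone, the shares were 6.38% for NRF1, 5.14% for ETS and 3.05% for YY1. GGGGCGGGG (SP1) stood in 20.3% of the 74 and 11.4% of all promoters, CCAAT in 39.2% of the 74 and 37.4% of all, and TATAAA in 6.76% of the 74 and 13.6% of all. Over the coding promoters these shares were 15.3% for SP1, 38.2% for CCAAT and 12.6% for TATAAA. Matches of different motifs overlapped in 0 of these genes. Mrps26 held both the NRF1 and the ETS motif, Mrpl32 the NRF1 and the YY1 motif, and Mrps27 the ETS and the YY1 motif. A match is a description of the letters and not evidence of a bound site.

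The windows below show the motif in capitals, 5′ to 3′ along the gene's strand, with up to 30 bases on each side, all upstream of the start. In Mrpl12, Mrps18c, Mrps27, Mrps11 and Mrps12 the motif lies on the other strand, so the capitals are its reverse complement. For NRF1 and ETS they were chosen to set genes that fell beside genes that were not called. The NRF1 motif is shown for Mrpl17, Mrpl39 and Mrpl44, which fell, and for Mrpl12 and Mrpl45, which were not called.
Mrpl17 (chr7:105811097-105811166, minus strand): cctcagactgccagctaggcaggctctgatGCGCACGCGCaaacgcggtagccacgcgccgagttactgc
Mrpl39 (chr16:84735330-84735399, minus strand): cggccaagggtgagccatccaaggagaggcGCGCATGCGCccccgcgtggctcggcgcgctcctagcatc
Mrpl44 (chr1:79775953-79776017, plus strand): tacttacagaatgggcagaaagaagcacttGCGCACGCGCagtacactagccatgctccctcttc
Mrpl12 (chr11:120484526-120484595, plus strand): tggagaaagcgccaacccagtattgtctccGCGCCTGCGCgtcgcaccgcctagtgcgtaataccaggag
Mrpl45 (chr11:97315566-97315635, plus strand): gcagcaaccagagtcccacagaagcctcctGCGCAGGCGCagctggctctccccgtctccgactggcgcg
The ETS motif is shown for Mrpl51, Mrps18c and Mrps22, which fell, and for Mrpl3 and Mrps27, which were not called.
Mrpl51 (chr6:125192080-125192147, plus strand): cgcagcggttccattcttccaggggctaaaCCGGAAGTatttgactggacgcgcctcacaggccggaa
Mrps18c (chr5:100798572-100798639, plus strand): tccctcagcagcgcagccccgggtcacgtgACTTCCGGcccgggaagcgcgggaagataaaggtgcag
Mrps22 (chr9:98601680-98601720, minus strand): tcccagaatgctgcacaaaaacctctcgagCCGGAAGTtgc
Mrpl3 (chr9:105053219-105053267, plus strand): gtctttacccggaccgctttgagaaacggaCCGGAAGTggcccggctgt
Mrps27 (chr13:99344707-99344774, plus strand): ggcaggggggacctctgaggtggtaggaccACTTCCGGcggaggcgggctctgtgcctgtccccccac
The YY1 motif is shown as an example for Mrps11 and Mrps12, which were not called; in Mrpl49 and Mrps18a, which fell, it lies after the start.
Mrps11 (chr7:78782994-78783061, plus strand): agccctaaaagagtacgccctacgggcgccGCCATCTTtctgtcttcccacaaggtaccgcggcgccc
Mrps12 (chr7:28741983-28742050, minus strand): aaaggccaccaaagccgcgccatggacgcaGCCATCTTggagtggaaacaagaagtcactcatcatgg

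Genes with and without these motifs fell side by side. Of the tested genes with the NRF1 motif 4 of 13 fell, of those with the ETS motif 4 of 11, and of those with the YY1 motif 2 of 12. Of the 33 genes with any of these motifs 10 fell, with a median log2 fold change of -0.20. Of the 34 genes with a promoter but none of these motifs 5 fell, with a median of -0.15. Of all 67 tested genes with a promoter 15 fell, 22.4%, and of all tested genes 10.7%. These shares are given as counts and their difference was not tested.

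Among the large-subunit genes, the fall was largest by fold in Mrpl16 (ENSMUSG00000024683), whose protein lies close to the peptidyl transferase centre, where peptide bonds form. It had 28.3, 30.0, 28.4 and 27.8 CPM in H-TBA libraries 1 to 4, against 38.1, 42.8 and 42.1 CPM in L-TBA libraries 1 to 3. The H-TBA libraries lay within a narrow band well under the L-TBA libraries, and the groups did not overlap. The log2 fold change was -0.52 ± 0.08 (SE), with an edgeR adjusted p of 0.00112, the smallest among the genes for the mitochondrial ribosome. Mrpl2, whose protein also contributes to the peptidyl transferase region, fell by 0.29 on the log2 scale, to 34.7 ± 2.16 CPM in H-TBA, against 42.4 ± 1.11 CPM in L-TBA, a call lost without H-TBA 3 or 4 or any L-TBA library (adjusted p up to 0.0804). Mrpl3, another protein with a bacterial counterpart near that centre, had 19.9 ± 0.532 CPM in H-TBA and 21.4 ± 1.61 CPM in L-TBA, and was not called.

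Mrpl20 encodes a protein whose bacterial counterpart binds the large ribosomal RNA early in assembly. It had 39.0, 32.2, 31.1 and 30.4 CPM in H-TBA, against 40.4, 44.3 and 44.4 CPM in L-TBA. H-TBA 1 came close to the lowest L-TBA library, and the other H-TBA libraries lay well below it. The log2 fold change was -0.38 ± 0.10 (SE), with an adjusted p of 0.0175, and the call was lost without H-TBA 4, L-TBA 2 or L-TBA 3 (adjusted p up to 0.0627). Mrpl14, on the face towards the small subunit, fell by 0.30 on the log2 scale, to 32.8 ± 3.58 CPM in H-TBA, against 40.4 ± 1.75 CPM in L-TBA. In human cells the Mrpl14 protein binds the assembly factor MALSU1. The call of Mrpl14 held without H-TBA 1 and was lost without any other single library (adjusted p up to 0.124).

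Several large-subunit genes that fell encode proteins found in mitochondrial ribosomes alone. Mrpl51 had 35.3, 35.8, 33.3 and 34.6 CPM in H-TBA, against 42.1, 44.8 and 45.2 CPM in L-TBA. Both groups were tight and lay apart, with a log2 fold change of -0.34 ± 0.07 (SE) and an adjusted p of 0.00703. Mrpl49 had 25.2, 20.3, 19.5 and 18.9 CPM in H-TBA, against 25.8, 28 and 28.5 CPM in L-TBA. H-TBA 1 lay just under the lowest L-TBA library, and the call (log2 fold change -0.39 ± 0.11, adjusted p 0.0262) was lost without H-TBA 2, 3 or 4 or L-TBA 2 or 3 (adjusted p up to 0.0880). Exons of Mrpl49 overlap Syvn1 on the opposite strand, so some of its counts may belong to that gene.

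Mrpl52 fell to 28.1 ± 2.14 CPM in H-TBA, against 34.8 ± 1.40 CPM in L-TBA (log2 fold change -0.31), a call lost without H-TBA 2, H-TBA 4, L-TBA 1 or L-TBA 3 (adjusted p up to 0.0925). Mrpl44, which has the fold of an RNase III enzyme, fell to 19.7 ± 1.68 CPM in H-TBA, against 24.3 ± 0.749 CPM in L-TBA (log2 fold change -0.30). Mrpl39, related to threonyl-tRNA synthetase, fell to 22.5 ± 2.01 CPM in H-TBA, against 27.6 ± 1.16 CPM in L-TBA (log2 fold change -0.30). The calls of Mrpl44 and Mrpl39 held only with all libraries or without H-TBA 1, reaching adjusted p of 0.129 and 0.125 without another library. Exons of Mrpl44 overlap Wdfy1 on the opposite strand.

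Mrpl17, one of the proteins around the exit of the peptide tunnel, had 55.1, 54.0, 50.5 and 51.5 CPM in H-TBA, against 64.5, 61.2 and 64.8 CPM in L-TBA, with a log2 fold change of -0.27 ± 0.07 (SE) and an adjusted p of 0.0202. Every H-TBA library lay below the L-TBA range, although the call was lost without H-TBA 4, L-TBA 1 or L-TBA 3 (adjusted p up to 0.0745). Mrpl22 had 15.9 ± 2.28 CPM in H-TBA and 19.9 ± 1.31 CPM in L-TBA, with an adjusted p of 0.0760. Mrpl23 had 14.6 ± 1.19 CPM in H-TBA and 17.7 ± 2.47 CPM in L-TBA, with an adjusted p of 0.126. Mrpl47 had 11.8 ± 1.53 CPM in H-TBA and 13.1 ± 0.600 CPM in L-TBA, with an adjusted p of 0.426. These proteins also lie at the exit, and their genes were not called. Mrpl24, a further protein there, had 67.6 ± 3.27 CPM in H-TBA and 64.4 ± 6.15 CPM in L-TBA, with an adjusted p of 0.598. Mrpl45, which holds the ribosome at the inner membrane, had 30.1 ± 3.82 CPM in H-TBA and 34.3 ± 0.915 CPM in L-TBA, with an adjusted p of 0.198.

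The genes of the stalk, the arm of the large subunit that recruits translation factors, did not pass the test. Mrpl12, whose protein forms the tip of the stalk and also binds the mitochondrial RNA polymerase, had 125, 120, 116 and 106 CPM in H-TBA, against 124, 122 and 112 CPM in L-TBA. Its groups overlapped over most of their range, and the log2 fold change was -0.03 ± 0.08 (SE). Mrpl10, which anchors Mrpl12, had 49.0 ± 4.30 CPM in H-TBA and 54.6 ± 1.68 CPM in L-TBA, with an adjusted p of 0.205. Mrpl11, at the stalk base, had 24.8 ± 3.0 CPM in H-TBA and 25.8 ± 1.32 CPM in L-TBA, with an adjusted p of 0.742. Mrpl58, a hydrolase of the large subunit that frees stalled peptides, had 27.2, 27.6, 26.8 and 27.3 CPM in H-TBA, against 29.5, 32.3 and 28.4 CPM in L-TBA. Its H-TBA libraries were nearly level and lay below the L-TBA libraries, but the adjusted p was 0.223.

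**Figure D3:**
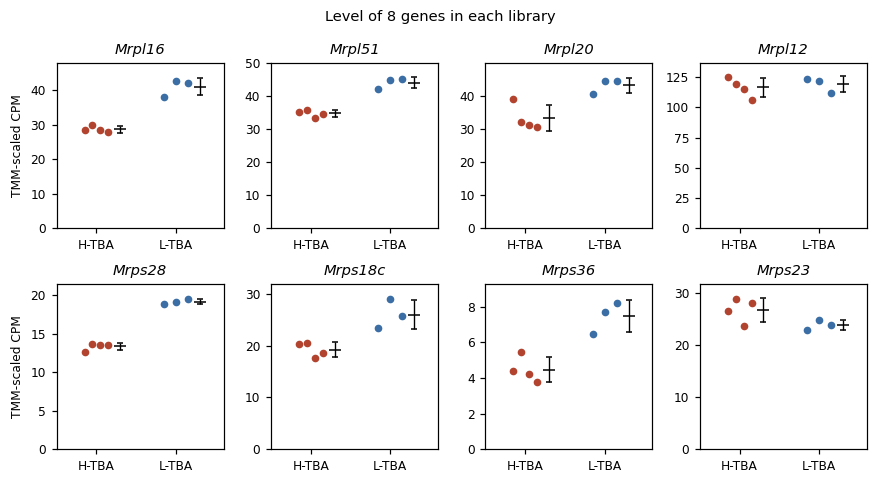
Level of 8 genes in each library, in TMM-scaled CPM from 0, with H-TBA left (red) and L-TBA right (blue); black bars are the mean ± SD. Mrpl16, Mrpl51, Mrpl20, Mrps28, Mrps18c and Mrps36 fell with no overlap between groups, while Mrpl12 and Mrps23 were not called.

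In the small subunit Mrps28 (ENSMUSG00000040269) fell with groups that lay far apart. Its protein is the counterpart of bacterial ribosomal protein bS1. It had 12.6, 13.7, 13.6 and 13.6 CPM in H-TBA, against 18.9, 19.1 and 19.5 CPM in L-TBA. H-TBA 1 was slightly lower than the other H-TBA libraries, and each group was tight. The log2 fold change was -0.52 ± 0.09 (SE), with an adjusted p of 0.00266. Mrps36 (ENSMUSG00000061474) had the largest fall of all by fold, with 4.39, 5.47, 4.23 and 3.80 CPM in H-TBA, against 6.48, 7.72 and 8.21 CPM in L-TBA. Its log2 fold change was -0.74 ± 0.18 (SE), with an adjusted p of 0.0106. The Mrps36 protein is now known as a subunit of the oxoglutarate dehydrogenase complex of the citric acid cycle, and without this gene 15 of the genes fell. Mrps36 was also the lowest of the tested genes, with 47 counts in its lowest library, and has annotated pseudogenes with which it may share counts.

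The paralogs Mrps18a, Mrps18b and Mrps18c, which occupy separate places in the ribosome, gave differing results. Mrps18c had 20.4, 20.5, 17.6 and 18.5 CPM in H-TBA, against 23.4, 29 and 25.7 CPM in L-TBA. The groups did not overlap, the log2 fold change was -0.44 ± 0.10 (SE) and the adjusted p 0.0109, which reached 0.0560 without L-TBA 2. Mrps18a had 31.5, 27.8, 26.8 and 31.0 CPM in H-TBA, against 34.3, 41.6 and 33.6 CPM in L-TBA. L-TBA 2 stood above the rest, and the call (log2 fold change -0.32 ± 0.10, adjusted p 0.0421) was lost without L-TBA 1, L-TBA 2 or H-TBA 2, 3 or 4 (adjusted p up to 0.188, reached without L-TBA 2). Mrps18b had 36.6 ± 2.21 CPM in H-TBA and 41.6 ± 1.38 CPM in L-TBA, and with an adjusted p of 0.113 it was not called. Whether the paralogs differ from each other was not tested.

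Mrps22, found in mitochondria alone and mutated in a human mitochondrial disease, had 12.6, 14.1, 12.7 and 13.8 CPM in H-TBA, against 15.8, 18.9 and 17.2 CPM in L-TBA. The groups did not overlap, with a log2 fold change of -0.38 ± 0.11 (SE) and an adjusted p of 0.0241, and the call was lost without H-TBA 3, L-TBA 2 or L-TBA 3 (adjusted p up to 0.106). Mrps17, which binds the small ribosomal RNA, fell to 32 ± 1.82 CPM in H-TBA, against 38.6 ± 1.16 CPM in L-TBA (log2 fold change -0.27), a call lost without H-TBA 3 or 4 or any L-TBA library (adjusted p up to 0.103). Mrps16, also a disease gene in humans, had 20.1 ± 1.02 CPM in H-TBA and 23.6 ± 1.32 CPM in L-TBA, with an adjusted p of 0.0832. Its groups did not overlap, nor did those of Mrps33, at 16.5 ± 1.31 CPM in H-TBA and 20.2 ± 1.25 CPM in L-TBA, or of Mrps10, at 26.3 ± 3.32 CPM in H-TBA and 32 ± 1.22 CPM in L-TBA. The adjusted p was 0.0612 for Mrps33 and 0.0769 for Mrps10. Mrps21 came as near, with a log2 fold change of -0.38 and an adjusted p of 0.0577, but its groups overlapped.

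Mrps12, part of the decoding centre, had 28.9 ± 3.52 CPM in H-TBA and 30.5 ± 2.27 CPM in L-TBA, with an adjusted p of 0.618. Mrps7, in the head of the small subunit, had 51.6 ± 4.17 CPM in H-TBA and 60.5 ± 5.24 CPM in L-TBA, with an adjusted p of 0.0924. Mrps34 had 40.8 ± 4.48 CPM in H-TBA and 43.4 ± 1.93 CPM in L-TBA, with an adjusted p of 0.549, and its exons overlap Nme3 and Mapk8ip3. These groups overlapped. At the upper end of the range, Mrps23 had 26.5, 28.8, 23.7 and 28.2 CPM in H-TBA, against 23.0, 24.9 and 23.9 CPM in L-TBA. Its log2 fold change of 0.16 ± 0.09 (SE) was the highest of the 76, and its adjusted p was 0.239. Mrps31 stood at 0.13 and Mrps30 at 0.06 on the same scale, with overlapping groups.

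The levels of the genes per kilobase of their principal GENCODE transcript spanned a wide range. Mrpl12 was highest, at 88.7 CPM per kb in H-TBA and 90.8 CPM per kb in L-TBA. Mrpl52 followed, at 67.2 CPM per kb in H-TBA and 83.2 CPM per kb in L-TBA, and Mrps25 was lowest, at 1.88 CPM per kb in H-TBA and 2.18 CPM per kb in L-TBA. The median over the 76 genes in L-TBA was 18.6 CPM per kb. Principal transcripts ran from 418 to 7300 bases, and the longest of them, that of Mrpl17, lowers its level on this scale. Across the 76 genes the log2 fold change had a Pearson r of 0.25 with log2 transcript length, 0.24 with log2 mean CPM and 0.04 with exon GC content, as a description over genes that share the same libraries. An offset for gene length left 12 genes called lower and an offset for GC content 18.

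Genes on and off the list of bacterial counterparts used here both contributed. Of the 45 tested genes on the list 8 fell, 17.8%, with a median log2 fold change of -0.14. Of the 31 off the list 8 fell, 25.8%, with a median of -0.19. Of all tested genes 10.7% were called lower. The 31 include Mrps18a and Mrps18b, although their paralog Mrps18c is on the list. They also include Mrps36, now known as a subunit of the oxoglutarate dehydrogenase complex. The strand setting of the counting is not known, so genes whose exons overlap another annotated gene may hold counts of that gene. Of the 45 tested genes with no such overlap 11 fell, 24.4%, and of the 31 with an overlap 5 fell, 16.1%. These 5 were Mrps18c, Mrpl49, Mrpl51, Mrpl14 and Mrpl44. Mrps11 and Mrpl46 overlap each other on opposite strands. Mrps11 had 10.7 ± 1.72 CPM in H-TBA and 13.2 ± 1.45 CPM in L-TBA, and Mrpl46 had 16.8 ± 1.89 CPM in H-TBA and 16.9 ± 0.239 CPM in L-TBA; neither was called.

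Apart from translation factors, few genes for the ribosome's other parts and for the machinery around it were called. Over all tested genes edgeR called 23.9% in either direction. The ribosomal RNAs encoded by mitochondrial DNA overlapped between groups: mt-Rnr1 had 1376, 1557, 1207 and 1331 CPM in H-TBA, against 1595, 1500 and 1426 CPM in L-TBA (adjusted p 0.406), and mt-Rnr2 had 2274 ± 322 CPM in H-TBA and 2474 ± 36.8 CPM in L-TBA (adjusted p 0.520). The messenger RNAs of mitochondrial DNA, which this ribosome translates, summed to between 43403 and 61824 CPM in H-TBA and between 70314 and 80910 CPM in L-TBA. The 5 mitoribosome proteins not named Mrp (Dap3, Ptcd3, Aurkaip1, Chchd1 and Gadd45gip1) had log2 fold changes between -0.16 and -0.06, and 0 were called by edgeR, DESeq2 or limma-voom or had an unadjusted p under 0.05. Of 30 genes for ribosome assembly and rRNA modification 0 were called by edgeR, with 3 higher and 1 lower at an unadjusted p under 0.05, 0 called by DESeq2 and 2 called higher by limma-voom. Their median log2 fold change was -0.02. Tfb1m, which methylates the small ribosomal RNA, had 7.44 ± 1.78 CPM in H-TBA and 7.92 ± 0.938 CPM in L-TBA.

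Among 19 mitochondrial translation factors and proteins that handle mitochondrial messenger RNA, 4 fell, 21.1% beside 10.7% of all tested genes. Their median log2 fold change was -0.16. The mitochondrial ribosomal protein genes had the same share, 21.1%, and the same median, -0.16. Taco1, a translational activator of cytochrome c oxidase subunit I, had 13.6, 10.6, 10.2 and 11.7 CPM in H-TBA, against 16.2, 17.6 and 18.2 CPM in L-TBA. The groups lay apart, with a log2 fold change of -0.59 ± 0.12 (SE) and an adjusted p of 0.00607. Slirp, which with Lrpprc stabilises mitochondrial messenger RNA, fell by 0.43 on the log2 scale, to 14.2 ± 1.42 CPM in H-TBA, against 19.1 ± 1.1 CPM in L-TBA; the call was lost without L-TBA 1 (adjusted p 0.0739). Its partner Lrpprc had 94.0 ± 11.1 CPM in H-TBA and 114 ± 7.44 CPM in L-TBA, with an adjusted p of 0.0666. 1700021F05Rik, also known as Mtres1, fell to 14.1 ± 2.0 CPM in H-TBA, against 19.7 ± 2.40 CPM in L-TBA, and the elongation factor Gfm1 fell to 79.0 ± 9.69 CPM in H-TBA, against 98.6 ± 8.14 CPM in L-TBA. Tufm, the elongation factor that delivers aminoacyl-tRNA, had 64.2 ± 4.43 CPM in H-TBA and 64.5 ± 4.61 CPM in L-TBA.

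Of 20 mitochondrial aminoacyl-tRNA synthetases and amidotransferase subunits 2 fell, 10% of them, beside 10.7% of all tested genes. Gatb, a subunit of the glutamyl-tRNA amidotransferase, fell to 34.7 ± 6.63 CPM in H-TBA, against 48.3 ± 3.47 CPM in L-TBA, and Iars2, which charges the isoleucine tRNA, fell to 81.4 ± 8.01 CPM in H-TBA, against 100.2 ± 4.70 CPM in L-TBA. The calls of 1700021F05Rik, Gfm1, Gatb and Iars2 were each lost without H-TBA 4 and without L-TBA 1, among other libraries, with adjusted p of up to 0.104, 0.151, 0.0863 and 0.118 in that order. Of 13 genes for transcription and replication of mitochondrial DNA 0 were called by edgeR, beside 23.9% of all tested genes in either direction. Of these 13, 0 were higher and 3 lower at an unadjusted p under 0.05, 0 were called by DESeq2 and 3 were called lower by limma-voom. Tfam, which packages mitochondrial DNA, had 50.1 ± 4.28 CPM in H-TBA and 51.7 ± 2.87 CPM in L-TBA. Polrmt, the RNA polymerase, had 21.1 ± 1.77 CPM in H-TBA and 21.9 ± 0.906 CPM in L-TBA.

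The genes for NRF1, GABPA and YY1 were not called either, where edgeR called 23.9% of all tested genes in either direction. Of 11 regulators of mitochondrial biogenesis 0 were called by edgeR, DESeq2 or limma-voom with all libraries and TMM or size factors, with 1 higher and 1 lower at an unadjusted p under 0.05. Library totals gave 2 higher, and leaving out H-TBA 3 gave 1 higher. Ppargc1a, a coactivator of NRF1 and of nuclear receptors, had 17.7, 18.2, 11.2 and 15.9 CPM in H-TBA, against 10.5, 12.1 and 12.7 CPM in L-TBA, with an adjusted p of 0.0929. H-TBA 3 lay among the L-TBA libraries and the others above them, and Ppargc1a was called higher without H-TBA 3 (adjusted p 0.0119) and with library totals (adjusted p 0.0210). Nrf1 had 13.1 ± 0.908 CPM in H-TBA and 12.1 ± 1.30 CPM in L-TBA, and Gabpa had 47.7 ± 4.60 CPM in H-TBA and 50.9 ± 1.22 CPM in L-TBA. Of 17 genes for abundant mitochondrial proteins 1 fell, 5.88% beside 10.7% of all tested genes. This was Cs, the citrate synthase of the citric acid cycle. It had 106, 83.0, 99.7 and 103 CPM in H-TBA, against 136, 171 and 148 CPM in L-TBA. The log2 fold change was -0.64 ± 0.11 (SE), with an adjusted p of 0.00185. Over these related lists together 7 of 115 genes fell, and 4 of the 7 were on the list of translation factors. The share, 6.09%, was below the 10.7% of all tested genes. By edgeR and by DESeq2 0 of the 115 were called higher, where edgeR called 13.1% of all tested genes higher. At an unadjusted p under 0.05 (edgeR) 6 of the 115 were higher, and limma-voom called 3 higher.

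Beside the mitochondrial ribosomal protein genes, the nuclear genes for respiratory chain and ATP synthase subunits, the partners of what this ribosome makes, had 38 of 83 called lower, 45.8% beside 10.7% of all tested genes, with a median log2 fold change of -0.28. That count was 15 with the replicate number as a block, 24 with library totals (median -0.13, 2 higher), 25 without L-TBA 1, and 26 without H-TBA 4 or without L-TBA 3. Of all tested genes 754 of 15249 were lower with the block and 5.46% with library totals. Without L-TBA 1 it was 1035 of 15527, without H-TBA 4 1113 of 15005, and without L-TBA 3 1139 of 15601. In each of these settings the share of respiratory chain genes was above that of all tested genes. Cytosolic ribosomal protein genes had 8 of 84 called lower, 9.52% and close to the share of all tested genes, and 2 called higher. Their median of -0.03 turned to 0.13 with library totals, where 3 were lower and 17 higher, beside 5.46% and 20.4% of all tested genes. It also turned to 0.015 with the length offset, to 0.0022 with the block and to 0.0053 without H-TBA 4. Limma-voom called 12 lower and 8 higher, and without H-TBA 1 the counts were 8 lower and 8 higher. The differences between these lists were not tested.

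**Figure D4:**
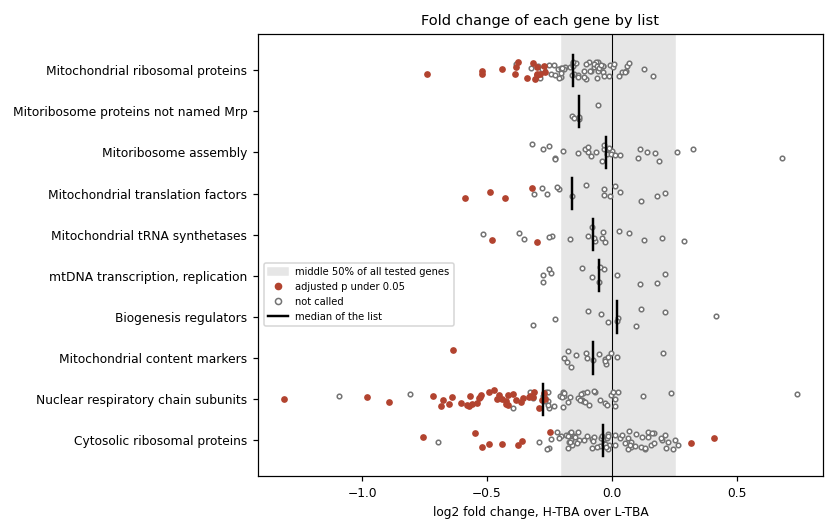
Log2 fold change (H-TBA over L-TBA) of each tested gene by list, a point for each gene, filled where the adjusted p was under 0.05; the black line is the list's median and the grey band holds the middle 50% of all tested genes. The median of the mitochondrial ribosomal protein genes, -0.16, lies between those of the respiratory chain genes, -0.28, and the cytosolic ribosomal protein genes, -0.03.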

How the data were processed

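RNA from flash-frozen liver was sequenced in 7 libraries (4 H-TBA, 3 L-TBA). The values deposited by the authors are raw, unscaled counts for each Ensembl gene. Named in the submitters' processing notes are mm9, TopHat2 2.0.11, CASAVA and DESeq2 1.18.1, without roles. How reads were counted, with which strand setting and annotation, is not given in the sources used here. Counts may therefore be shared between overlapping genes or near-identical copies. Symbols, transcript lengths, GC content and overlaps came from GENCODE M21 by Ensembl identifier (32897 of 37620 identifiers had a symbol), and promoters from RefSeq (GRCm38.p6). As these builds differ from mm9, no coordinates are given for the counted genes.

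Genes were filtered with filterByExpr (minimum count 10, minimum total 15), scaled by TMM and tested with edgeR 4.0.16 (quasi-likelihood, in R 4.3.3) on group alone; adjusted p-values run over the 15249 tested genes, with a threshold of 0.05. Levels are TMM-scaled CPM with SD; standard errors were derived from F. The biological coefficient of variation (common estimate) was 0.125, and the 76 tested genes had 47 to 1436 counts in a library (median 301.5). The members and lists were chosen with earlier results of these data known. The list for translation lacks Mtrfr and that for abundant proteins Tomm20, which were not matched, and Mrpl33 is not analysed here. Named genes are those of the largest falls per subunit (up to 6), a set list of key genes, and up to 3 called genes per related list with the smallest adjusted p. Mrpl39, Mrpl2, Mrpl17, Mrpl22, Mrpl23, Mrpl47, Mrps21, Mrps33, Mrps10, Mrps23, Mrps31, Mrpl24, Mrps11, Mrpl46 and Gfm1, with Mrps25 (the lowest level per kilobase), were named after their values were seen. The edgeR step was tested on simulated counts. Libraries of a group differed by more than sampling noise (smallest chi-square per degree of freedom 5.71). Alternatives were other scalings, filters and thresholds, DESeq2 1.42.0, limma-voom (limma 3.58.1), offsets for length and GC content, the replicate number as a block, and leaving out each library. Leaving out Mrps36 and genes with overlaps, and scaling the subunit sums by library totals, were chosen after seeing the data. Figures were drawn with matplotlib 3.10.9.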

Additional observations from a re-analysis of the deposited data

Results flagged for a closer look

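Mrps28, which fell in H-TBA, had 1 library apart from the others of its group. H-TBA 1 had 12.6 CPM, against 13.7, 13.6 and 13.6 CPM in H-TBA 2, 3 and 4. The gap from H-TBA 1 to the nearest library made up 0.904 of the range of the group, above Dixon's 95% critical value for a group of 4. Chance alone gives such a gap in about 1 in 20 groups, and of the 76 genes tested for the mitochondrial ribosome this was the only one. The call of Mrps28 held without H-TBA 1.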

How the results depend on the processing

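The count of 16 genes called lower stayed within 1.5 times under DESeq2 size factors, TMM without the 20 most abundant genes, no or a stricter filter, a robust fit, DESeq2, limma-voom and offsets for length or GC content (12 to 20). Mrpl16 and Mrps28 were called lower in all 18 alternative fits. With library totals 3 were lower and 1 higher (large subunit 1 lower; small subunit 2 lower, 1 higher; related lists 2 lower, 10 higher; all genes 832 lower, 3113 higher). At an adjusted p of 0.01, 3 were lower (large 2, small 1, related 2, all genes 749 lower and 1126 higher), and at 0.1 the small subunit had 11 lower and the related lists 13 lower and 5 higher. The length offset left 6 of 47 large-subunit genes lower. Keeping only genes with no overlap gave 6 lower of the 27 large-subunit genes that remained. Limma-voom called 14 related genes lower and 3 higher, and no filter 1 higher. Leaving out each library in turn gave 6 to 24 genes lower and 0 higher (large 2 to 14, small 2 to 10, both 0 higher), related lists 2 to 14 lower and 0 to 2 higher, and all genes 1035 to 2123 lower and 1470 to 2429 higher.

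Whether the replicate numbers pair the libraries is not known. Correlations of same-numbered libraries, as deviations from their group means, were -0.103, -0.0589 and -0.0627. They cannot decide this, because deviations from a group mean are tied to each other in groups this small. With the replicate number as a block, 2 genes were called lower, Mrpl16 and Mrps28 (large subunit 1, small subunit 1, related lists 2, all genes 754 lower and 1166 higher). As a share, 2 of 76 was below the 754 of 15249 over all tested genes.

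Log2 fold changes of uncalled genes changed sign in some fits. With library totals, Mrpl12 at 0.12, Mrpl11 at 0.095, Mrpl3 at 0.052, Mrpl58 at 0.010, Mrps12 at 0.067, Mrps34 at 0.062, Tfam at 0.11, Polrmt at 0.11, Tfb1m at 0.057, Tufm at 0.14, Gabpa at 0.057, mt-Rnr1 at 0.011, mt-Rnr2 at 0.030, Mrpl47 at 0.00050 and Mrpl46 at 0.14 stood above 0 and below the all-gene median of 0.16. With the block, Mrpl12 at 0.0099, Mrpl11 at 0.0038, Tfam at 0.0064, Tfb1m at 0.066, Tufm at 0.0012 and Mrpl46 at 0.028 stood above 0, and with the length offset Mrpl12 at 0.021, Mrps12 at 0.0052, Tufm at 0.0086 and Mrpl46 at 0.051. Leaving out each library in turn gave ranges across 0: Mrpl12 -0.079 to 0.010, Mrpl11 -0.13 to 0.0066, Tfam -0.092 to 0.0071, Polrmt -0.088 to 0.0032, Tfb1m -0.20 to 0.063, Tufm -0.068 to 0.036 and Mrpl46 -0.084 to 0.033. The cause was not tested. With 1 mismatch allowed, the motifs were found in 38.2% (NRF1), 54.4% (ETS), 39.7% (YY1), 50% (SP1), 98.5% (CCAAT) and 63.2% (TATA) of the 68 genes, against 19.1%, 16.2%, 17.6%, 19.1%, 38.2% and 7.35% for exact letters. Counted by promoter, the shares with 1 mismatch were 35.14%, 51.35%, 36.49%, 50%, 98.65% and 62.16% of the 74 promoters of these genes. Over all promoters they were 14.2%, 22.7%, 23.8%, 39.2%, 99.3% and 69.8%, and over the coding promoters 18.79%, 26.2%, 22.71%, 47.83%, 99.22% and 64.29%. The number of libraries, 3 in L-TBA, and the depth of 47 to 1436 counts per gene limit the precision of falls of this size.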
